A study of Homo sapiens with 4 samples.

Results

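The genes described here are 31 transcriptional targets of the tumour suppressor p53, listed by name as known targets. The list was drawn up with earlier results from these arrays known. Rows of the array table were matched to them by gene symbol (C12orf5 for TIGAR). Of the 31 genes, 29 had a row, out of 18417 genes with a row in all, and each had a single probe set. BTG2 and FDXR were not analysed here. Of the 29 measured genes, 28 exceeded the signal minimum used for testing, a mean of 5.64 on the log2 scale (the 30th percentile of all rows), and SPATA18, with a mean of 5.34, did not. TIGAR lay just above the minimum, with a mean of 5.68, and passed only through its ovary arrays.

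The arrays carry RNA of SNU-16, a human gastric carcinoma line. No genotype or drug treatment is given. The cells were implanted orthotopically into the stomach of BalB/c nude mice, and the tumour at that site and metastases in the ovary were dissociated, the cells of round 1 being kept in culture for 7 days. Stomach-derived cells were implanted again to give a stomach tumour of round 2, and ovary-derived cells to give an ovarian tumour of round 2. There are thus 4 arrays from 2 lineages, stomach and ovary, with 1 array for each lineage and round. The sources used here do not give how many mice stand behind an array, nor their age. The 2 arrays of a site are successive passages, and their spread is that between passages. The free-text descriptions of the round 2 samples contradict their titles on the site; titles and tissue labels were followed, and an exchange of those samples would alter the comparison of sites and the round difference within each lineage, but not the means of the rounds.

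p53 is a transcription factor that is held at low levels by the ubiquitin ligase MDM2 and accumulates after DNA damage, oncogene activity or ribosomal stress. It binds a response element made of a pair of 10-base blocks and activates genes that arrest the cell cycle, repair DNA, alter metabolism or start apoptosis, along with MDM2 and PPM1D, whose products act back on p53. Through p21, the product of CDKN1A, it also lowers many cell cycle genes indirectly. Several of its targets answer to other signals as well: PLK2 and PLK3 were described as kinases induced by serum and growth factors, and GADD45A, GDF15, PMAIP1 and TNFRSF10B are also reached by endoplasmic reticulum and amino acid stress.

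The promoter windows of these genes show what such an element looks like and how rarely it lies at the start site itself. RefSeq windows of GRCh38.p14, from 250 bases before to 50 after a transcript start, were found for 25 of the 31 members (36 windows). The p53 response element was searched on both strands as 2 blocks with 0 or 1 bases between them, each with an exact core of C, an A or T at the next 2 positions, then G, and with at most 2 mismatches elsewhere in the 20 bases. It occurred in 3 of the 25 members, DDB2, AEN and FAS, and in 3 of the 36 windows, against 0.276% of all 35116 windows. Allowing 3 mismatches, a setting chosen after the data were examined, added GDF15, RPS27L and SESN1, with 0.82% of all windows. These elements are printed 5′ to 3′ on the gene's strand, with the 2 cores in capitals:
DDB2: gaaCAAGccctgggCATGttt
AEN: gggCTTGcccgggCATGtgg
FAS: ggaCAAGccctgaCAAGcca
GDF15: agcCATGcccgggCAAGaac
RPS27L: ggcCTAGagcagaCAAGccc
SESN1: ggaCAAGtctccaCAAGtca

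The element of DDB2 has no mismatch and a spacer of 1 base; it lies at chr11:47214979-47214999 on the plus strand, from 5 to 25 bases after the start of one of its transcripts. That of AEN has 2 mismatches and lies at chr15:88621306-88621325 (plus strand), ending 15 bases before the start. That of FAS has 2 mismatches and lies at chr10:88991309-88991328 (plus strand), before one of 3 starts. Those with 3 mismatches are at chr19:18386186-18386205 in GDF15 (plus strand), chr15:63157527-63157546 in RPS27L (minus strand) and chr6:109009018-109009037 in SESN1 (minus strand). The plainer pattern of CATG, any 6 bases and CATG again was found in 1 member, TRIAP1, and in 0.373% of all windows. A match here describes letters and not binding, and the element known for CDKN1A lies further upstream than these windows reach. AEN is the member with a match of at most 2 mismatches whose values differed most between arrays, and the 250 bases before its start, chr15:88621090-88621339 on the plus strand of GRCh38.p14, are given with the element in capitals:
AEN upstream: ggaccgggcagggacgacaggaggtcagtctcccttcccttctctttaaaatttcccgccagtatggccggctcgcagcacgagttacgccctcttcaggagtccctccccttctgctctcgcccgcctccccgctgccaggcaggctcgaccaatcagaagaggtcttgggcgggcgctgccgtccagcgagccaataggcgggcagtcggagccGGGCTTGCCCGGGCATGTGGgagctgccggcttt

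Most of these genes had their highest value on 1 array, that of the round 2 ovary cells. It was the highest of the 4 arrays for 22 of the 29 measured members (22 of the 28 above the minimum), whereas 24.3% of the 14547 genes tested had their highest value there. The count was 20 after quantile normalization and 21 after centring on medians. The round 1 stomach array was the highest for 3 members (27.0% of genes tested), the round 2 stomach array for 3 (20.2%) and the round 1 ovary array for 1 (25.9%). Between rounds, 11 members were at least 1.5-fold higher in round 2 in the ovary lineage (2.41% of genes tested) and 0 were at least 1.5-fold lower (0.983%). The 11 include PLK2, whose round 1 ovary value lay under the signal minimum, and TIGAR, whose round 1 ovary value lay just above it. In the stomach lineage 1 member, TP53INP1, was at least 1.5-fold higher (1.23%) and 0 were lower (0.935%). In direction alone, 26 of the 29 members were higher in round 2 in the ovary lineage (47.0% of genes tested) and 20 in the stomach lineage (44.1%), and 25 were higher on average (45.4%). The median round difference of the 29 members was 0.38 in ovary and 0.061 in stomach, on the log2 scale, against medians over all genes tested of -0.0021 and -0.017. Bulk RNA does not tell more RNA per cell from more cells of a high-expressing kind.

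**Figure D1:**
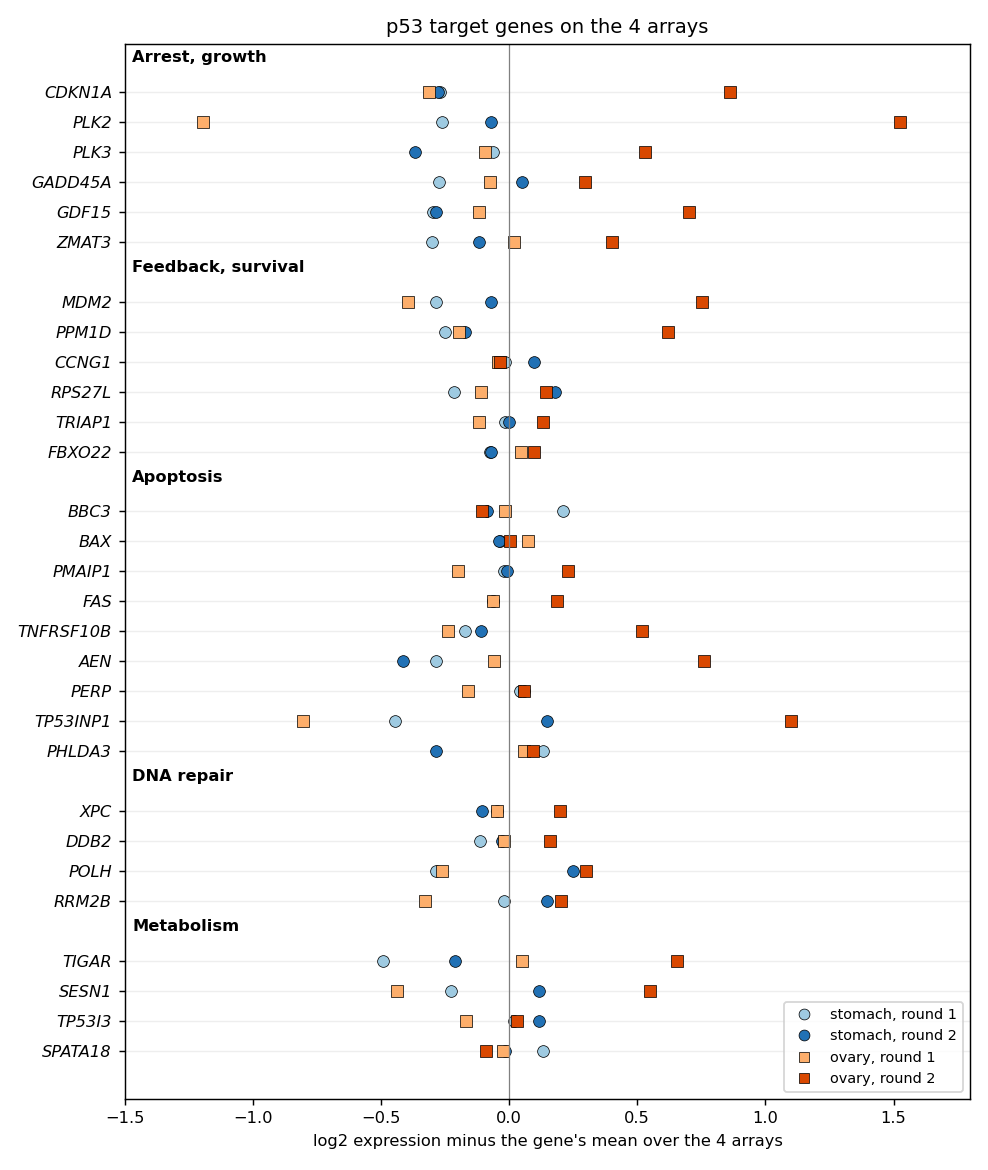
Log2 expression of the 29 measured p53 target genes on each of the 4 arrays, minus the gene's own mean over the arrays (x axis), with genes grouped by role (y axis); circles are stomach arrays, squares ovary arrays, and darker colours round 2. The round 2 ovary array (dark squares) is the rightmost point for 22 of the 29 genes, while CCNG1, RPS27L, BBC3, BAX, PHLDA3, TP53I3 and SPATA18 have it elsewhere.

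Among the genes of arrest and growth control, all 6 measured members were highest on the round 2 ovary array (24.3% of genes tested). CDKN1A, which encodes the cyclin-dependent kinase inhibitor p21 (probe set 8119088), stood at 8.39 in round 1 and 8.39 in round 2 of the stomach lineage, and at 8.35 in round 1 and 9.52 in round 2 of the ovary lineage. The first 3 of these values lie within 0.045 of each other, and the round 2 ovary value lies 1.13 above the next. In the ovary lineage the round 2 level was 2.26-fold that of round 1. PLK2, a polo-like kinase induced by stress (probe set 8112202), had stomach values of 6.004 and 6.196 and ovary values of 5.07 in round 1 and 7.79 in round 2. The ovary lineage held both its lowest and its highest value, with the round 1 ovary value under the signal minimum. The size of its difference between the ovary rounds, 2.72 on the log2 scale, therefore rests on a value too low to be relied on, and no fold is given.

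PLK3, a related kinase, had stomach values of 6.91 and 6.61 and ovary values of 6.88 and 7.51. GDF15, a secreted cytokine of the TGF-beta family and one of the genes with an element printed above, had 10.47 and 10.48 in stomach and 10.65 and 11.47 in ovary. Its stomach arrays were nearly equal and both ovary arrays exceeded them, by 0.18 in round 1 and 0.99 in round 2. ZMAT3, a zinc finger protein that binds RNA, had 6.70 and 6.89 in stomach and 7.02 and 7.41 in ovary, so that its sites did not overlap either. GADD45A, a growth arrest protein, went from 7.85 to 8.18 in stomach and from 8.05 to 8.42 in ovary. Its differences between rounds were thus alike in the lineages, 0.32 and 0.37, in contrast to those of CDKN1A (-0.0076 and 1.18).

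Of the genes whose products act back on p53 or favour survival, MDM2 and PPM1D were highest on the round 2 ovary array by 0.79 or more. MDM2 (probe set 7956989) had 10.71 and 10.93 in the stomach lineage and 10.60 and 11.75 in the ovary lineage. Its other 3 values were less close together than those of CDKN1A, and it was also higher in round 2 in stomach, by 0.22. The round 2 ovary level was 2.21-fold that of round 1 in ovary and 1.77-fold that of the round 2 stomach array. PPM1D, a phosphatase that removes activating phosphates from p53, had 8.06 and 8.13 in stomach and 8.11 and 8.93 in ovary. As with CDKN1A, its other 3 values lay close together, within 0.078, with the round 2 ovary value 0.79 above them.

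The remaining 4 genes of this role differed little. TRIAP1, a small inhibitor of apoptosis, had 8.72 and 8.74 in stomach and 8.62 and 8.87 in ovary. FBXO22, a substrate receptor of a ubiquitin ligase, was higher in both ovary arrays (9.18 and 9.23) than in both stomach arrays (9.05 and 9.06), a separation of 0.12 to 0.17. CCNG1, cyclin G1, was the reverse, with 11.14 and 11.25 in stomach and 11.11 and 11.12 in ovary. RPS27L, a homologue of a ribosomal protein, was higher in round 2 in both lineages, from 7.41 to 7.81 in stomach and from 7.52 to 7.77 in ovary, with the higher value in stomach.

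The 9 apoptosis genes divided. TP53INP1, a stress-induced protein acting in autophagy and cell death (probe set 8151890), had 6.22 and 6.81 in stomach and 5.86 and 7.76 in ovary. It was higher in round 2 in both lineages, 3.75-fold in ovary, a difference that ranked 11 among the genes tested. Its round 1 ovary value lay only a little above the signal minimum of 5.64, which limits this fold and rank. AEN, an exonuclease (probe set 7985767), whose element and upstream bases are printed above, had 8.21 and 8.08 in stomach and 8.44 and 9.26 in ovary. Both ovary arrays exceeded both stomach arrays, and the round 2 difference between sites, 1.18, was larger than that of round 1, 0.23. TNFRSF10B, the death receptor DR5, had 8.97 and 9.03 in stomach and 8.90 and 9.66 in ovary, another case of 3 close values and a high round 2 ovary value.

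PMAIP1, which encodes the BH3-only protein NOXA, had 8.24 and 8.26 in stomach and 8.06 and 8.49 in ovary. FAS, a death receptor with an element printed above, is listed at the identical value of 6.70 on 3 arrays and at 6.95 on the round 2 ovary array. Such repeated values (equal to 6 decimals on at least 2 arrays) occurred in 11.1% of the genes tested, and XPC also has one. PERP, a membrane protein of desmosomes, had 11.11 and 11.13 in stomach and 10.91 and 11.13 in ovary, so that only the round 1 ovary value stood apart, on the low side.

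BAX and BBC3 were not highest on the round 2 ovary array. BAX, a pore-forming member of the BCL2 family (probe set 8030158), had 8.69 and 8.68 in stomach and 8.80 and 8.73 in ovary, a range of 0.11 over the 4 arrays. BBC3, which encodes PUMA (probe set 8037872), was lowest on the round 2 ovary array, with 7.90 and 7.61 in stomach and 7.68 and 7.59 in ovary. It was the only member whose 2 round 2 values both lay below its 2 round 1 values (26.8% of genes tested). PHLDA3, a repressor of AKT, was lowest on the round 2 stomach array (6.93), with 7.27 to 7.35 on the others.

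All 4 DNA repair genes were highest on the round 2 ovary array (24.3% of genes tested), but by small margins. POLH, the translesion polymerase eta, went from 9.39 to 9.92 in stomach and from 9.41 to 9.97 in ovary. Its differences between rounds, 0.53 and 0.56, were nearly equal in the lineages, and its sites differed by 0.023 in round 1 and 0.050 in round 2. RRM2B, a p53-induced subunit of ribonucleotide reductase, had 8.23 and 8.40 in stomach and 7.92 and 8.45 in ovary. XPC and DDB2, damage recognition factors of nucleotide excision repair, stood at 6.59 to 6.89 and at 9.87 to 10.14 over the 4 arrays. DDB2, the only member with a mismatch-free element in its windows, differed between the ovary rounds by 0.18.

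Among the metabolic targets, TIGAR, a phosphatase that lowers glycolytic flux, had 5.19 and 5.47 in stomach and 5.73 and 6.34 in ovary. Both stomach values lay under the signal minimum, and both ovary values lay above them. SESN1, a sestrin that restrains mTORC1, had 7.00 and 7.34 in stomach and 6.78 and 7.77 in ovary, higher in round 2 in both lineages. TP53I3, a quinone oxidoreductase, stayed between 7.09 and 7.37. SPATA18, a protein of mitochondrial quality control, stood between 5.25 and 5.47, under the minimum on every array.

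**Figure D2:**
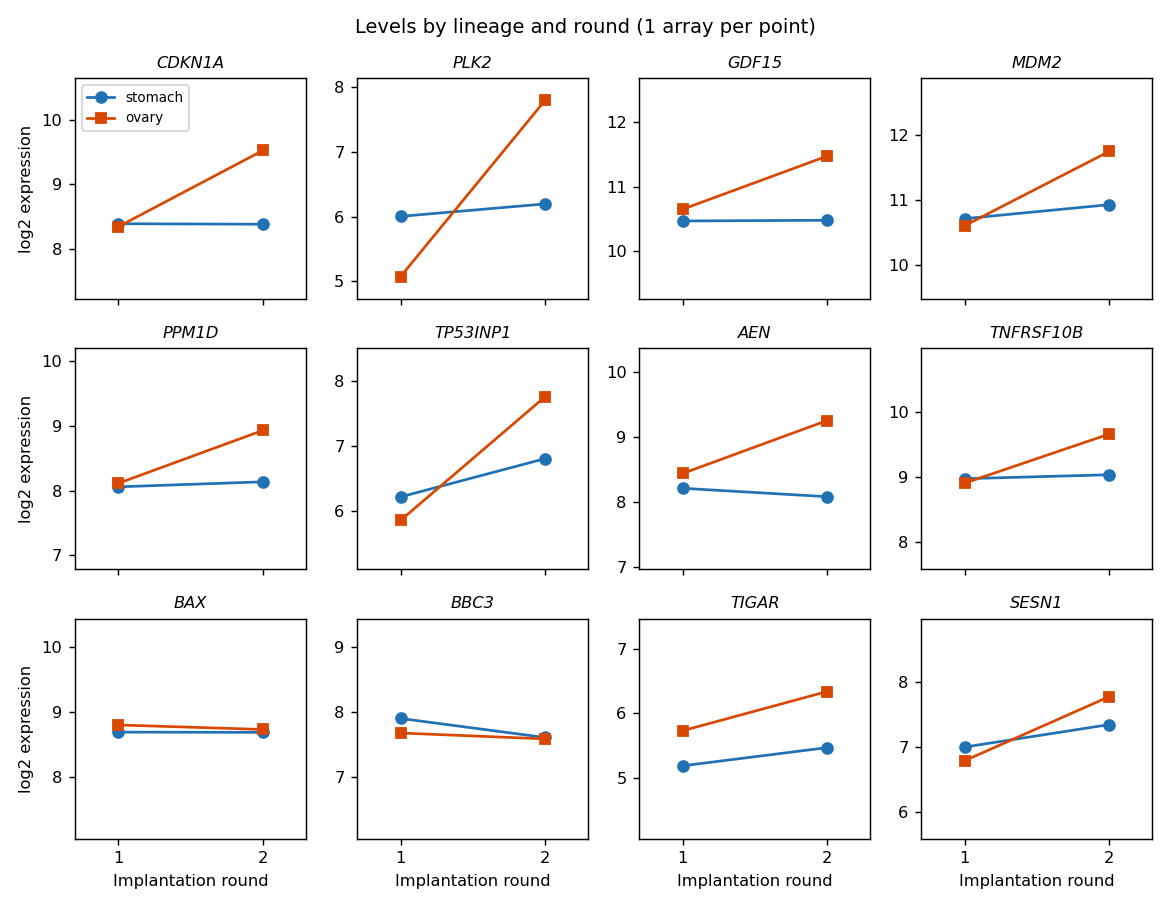
Log2 expression (y axis, each panel spanning the same number of log2 units) against implantation round (x axis) for 12 members, with 1 array per point; circles are the stomach lineage and squares the ovary lineage. CDKN1A, GDF15, PPM1D and TNFRSF10B are nearly level in stomach and higher in round 2 in ovary, TP53INP1 and SESN1 are higher in round 2 in both, and BAX and BBC3 are not higher in round 2 in either.

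The comparison of sites asked which of these genes differed between cells from ovarian and from stomach tumours. In round 2, 10 members were at least 1.5-fold higher in ovary (0.804% of genes tested) and 0 at least 1.5-fold lower (0.419%). The 10 include TIGAR, whose round 2 stomach value lay under the minimum. In round 1, 0 members were at least 1.5-fold higher (0.914%) and 1, PLK2, was lower (1.11%), by 0.93, with its ovary value under the minimum. In direction alone, 11 of the 29 measured members were higher in ovary in round 1 (46.2% of genes tested), 24 in round 2 (51.9%) and 23 on average (50.6%). The median site difference of the measured members was -0.031 in round 1 and 0.25 in round 2. Values of both ovary arrays above both stomach arrays were found for 7 members (13.4% of genes tested): AEN, BAX, DDB2, FBXO22, GDF15, TIGAR and ZMAT3. The opposite order was found for CCNG1 (11.2%) and for SPATA18, which is under the minimum. Several separations were narrow. DDB2 had 9.961 in round 1 ovary against 9.954 in round 2 stomach. BAX had 8.73 in round 2 ovary against 8.69 in round 1 stomach. Of the 12 members with the widest range, AEN, GDF15, TIGAR and ZMAT3 were thus ordered by site, and the other 8 were not. For TIGAR this order rests on stomach values that both lay under the minimum.

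In the fit of all 4 arrays, limma called 0 of the 14547 genes between sites after Benjamini-Hochberg adjustment (0.0%), members included. The smallest adjusted p over all genes was 0.578. At an unadjusted p under 0.05, 1 member, TIGAR, was among 378 genes (2.6%). TIGAR passed the minimum only through the ovary arrays where it is high, and both of its stomach values lie under it, so nothing is read from that test. AEN differed by 0.70 ± 0.28 (ovary minus stomach, standard error; adjusted p = 1 by limma), with 8.85 ± 0.58 (SD, n = 2) in ovary and 8.14 ± 0.092 (SD, n = 2) in stomach. CDKN1A differed by 0.55 ± 0.39, with an ovary level of 8.94 ± 0.83 (SD, n = 2) against 8.39 ± 0.0054 (SD, n = 2) in stomach, so that the spread within ovary exceeded the difference. Leaving out 1 array at a time, the site difference of AEN ranged from 0.29 without the round 2 ovary array to 1.11 without the round 1 ovary array, and that of TIGAR from 0.40 to 1.01 without the same arrays. A fit with a replicate block for the round also called 0 genes, and 4 members (AEN, GDF15, TIGAR and ZMAT3) had an unadjusted p under 0.05, as did 6.3% of genes tested. The 4 include TIGAR, from whose test nothing is read here either.

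Rounds were compared to ask which members differed between cells of the second and the first implantation. Both round 2 arrays lay above both round 1 arrays for 14 members (22.2% of genes tested): GADD45A, MDM2, PERP, PLK2, PMAIP1, POLH, PPM1D, RPS27L, RRM2B, SESN1, TNFRSF10B, TP53I3, TP53INP1 and TRIAP1. CDKN1A, AEN, GDF15 and TIGAR, high on the round 2 ovary array, were not among them. Several separations were narrow, and the count was 11 after quantile normalization and 18 after centring on medians.

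Between rounds limma called 0 of 14547 genes (0.0%), with a smallest adjusted p of 0.149, and 2178 genes (15.0%) had an unadjusted p under 0.05. Of the members, 6 of 28 did: POLH (0.55 ± 0.070), RPS27L (0.32 ± 0.078), SESN1 (0.67 ± 0.17), TP53INP1 (1.249 ± 0.34), RRM2B (0.35 ± 0.12) and GADD45A (0.35 ± 0.12), all higher in round 2 and with adjusted p between 0.287 and 0.322. A count of 6 in 28 is not far from the share over all genes. MDM2 differed by 0.68 ± 0.28 and CDKN1A by 0.58 ± 0.38, with the same adjusted p threshold missed (0.353 and 0.492 by limma). Without the round 2 ovary array these differences were 0.27 for MDM2 and 0.015 for CDKN1A, and that of TP53INP1 was 0.77; without the round 2 stomach array they were 1.09, 1.15 and 1.73. A replicate block for the site left the calls at 0, while 9 members and 16.2% of genes tested had an unadjusted p under 0.05.

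The difference between lineages was read from the contrast of site and round, that is, the round difference in ovary minus that in stomach. It was above 0 for 26 of the 29 members, where 54.7% of genes tested were above 0, and its median was 0.31 against 0.025 over all genes tested. The contrast was 1.32 for TP53INP1 (rank 36 of 14547), whose round 1 ovary value lay near the minimum, and 1.18 for CDKN1A (rank 50). For PLK2 it was 2.53, a size that rests on the round 1 ovary value under the minimum. It was between 0.70 and 0.95 for AEN, MDM2, PLK3, GDF15, PPM1D and TNFRSF10B. With 1 array for each lineage and round, the residual of this contrast holds the site and round differences, and limma called 0 of 14547 genes (0.0%; 194 genes, or 1.33%, and 0 members at an unadjusted p under 0.05).

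**Figure D3:**
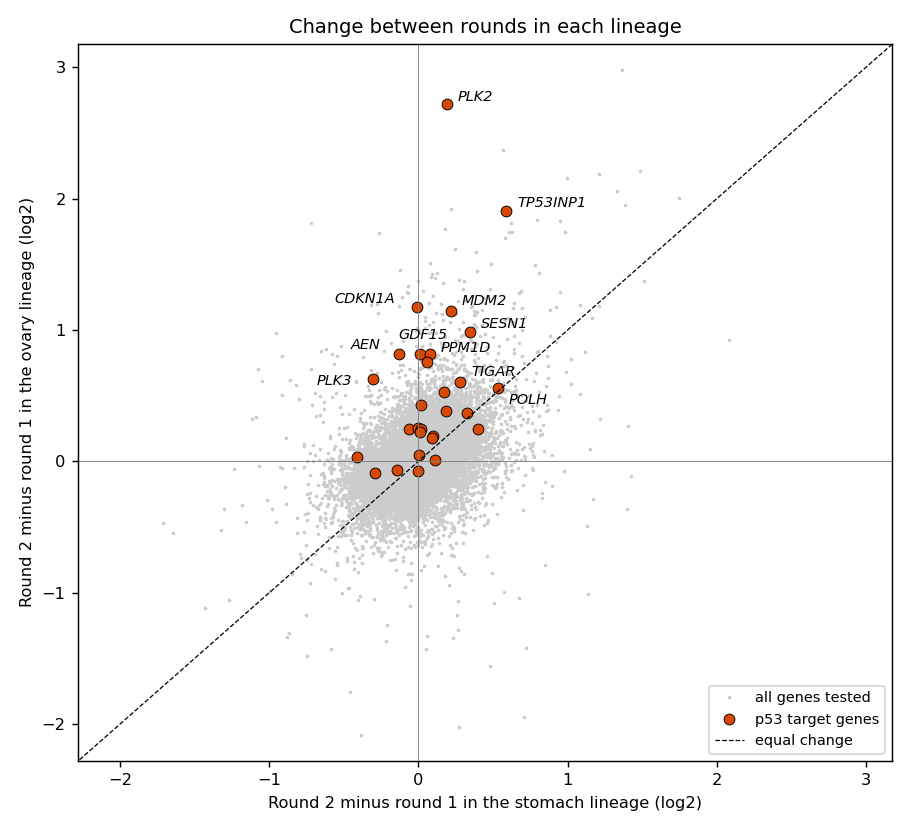
Difference between rounds (round 2 minus round 1, log2) in the ovary lineage (y axis) against that in the stomach lineage (x axis) for the 14547 genes tested (grey) and the 29 measured p53 target genes (orange); the dashed line marks equal change. PLK2 (0.19 in stomach and 2.72 in ovary) and TP53INP1 (0.59 and 1.91) are, of the members, furthest from the origin, and 26 of the 29 members lie above the dashed line.

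These medians rest on the round 2 ovary array. Without it, the median site difference of the 28 members above the minimum was -0.059, compared with 0.15 on all 4 arrays, and the median round difference was 0.059, compared with 0.30. Without the round 1 ovary array the medians were 0.30 between sites and 0.28 between rounds.

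Other genes of the pathway were read from lists drawn up by role. Of 24 regulators of the pathway, 22 were analysed here. Their median round difference was 0.050 in ovary and 0.013 in stomach, and 9 of 22 were highest on the round 2 ovary array, compared with 24.3% of genes tested. MDM4, the partner of MDM2, had 9.26 and 9.44 in stomach and 9.53 and 9.53 in ovary. TP73, a homologue of p53, had 7.36 and 6.96 in stomach and 7.15 and 6.93 in ovary, lower in round 2 in both lineages. ATM, a kinase that signals DNA breaks, had 8.72 and 9.05 in stomach and 8.97 and 8.73 in ovary, so that its round differences ran in opposite directions.

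Of 38 further p53 targets, 36 had a row and 16 of these were highest on the round 2 ovary array (24.3% of genes tested). Their median round difference was 0.13 in ovary and 0.015 in stomach, smaller in ovary than the 0.38 of the members; the difference between the lists was not tested. The gene of this list with the largest contrast was TNFRSF10D, a decoy receptor for the ligand of TNFRSF10B, with 7.87 and 7.96 in stomach and 7.85 and 8.84 in ovary. TM7SF3 went the other way, with 10.11 in round 1 and 9.67 in round 2 of the ovary lineage. Of 24 measured cell cycle genes of the kind lowered through p21, 5 were highest on the round 2 ovary array (24.3% of genes tested) and 13 on the round 2 stomach array (20.2%). The first count is near the share over all genes. Between rounds their median differed by 0.24 in stomach and by 0.044 in ovary; the contrast was above 0 for 6 of 24 (54.7% of genes tested). FOXM1, a transcription factor of mitotic genes, had 9.58 and 9.81 in stomach and 10.09 and 9.83 in ovary, and CCNB2, cyclin B2, had 10.58 and 10.93 in stomach and 10.92 and 10.75 in ovary. For each of these 3 lists, limma called 0 members in any of the 3 fits. At an unadjusted p under 0.05, a mark reached by 2.6% of genes tested between sites, 15.0% between rounds and 1.33% for the contrast, the 22 regulators tested had 0 between sites and 2 between rounds. The 31 further targets tested had 4 and 6, and the 24 cell cycle genes had 0 and 4, a round count near the share over all genes. For the contrast these lists had 1, 0 and 1. Of the 4 further targets so marked between sites, SESN2 was higher in ovary (0.43), while FUCA1 (-0.38), ABHD4 (-0.29) and EDA2R (-0.26) were lower. Both ovary arrays lay above both stomach arrays for 2 of the 36 further targets (13.4% of genes tested). They lay below both for 7 (11.2%).

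Genes of neighbouring stress responses were set beside the p53 targets on the same arrays. Of 23 measured immediate early and heat shock genes, which respond to serum, stress and handling of cells, 17 were highest on the round 2 ovary array (24.3% of genes tested). Their median round difference was 0.49 in ovary and 0.043 in stomach, beside 0.38 and 0.061 for the p53 targets. DUSP1, a phosphatase of MAP kinases, had 9.40 and 9.48 in stomach and 8.94 and 10.45 in ovary. JUN had 9.07 and 9.18 in stomach and 8.58 and 9.98 in ovary, and ATF3 had 8.01 and 8.05 in stomach and 7.89 and 8.91 in ovary. DUSP1, JUN and ATF3 were named because their contrast of site and round was among the largest of the list. A likeness of their values to those of CDKN1A and PLK2 therefore follows from that choice, and nothing is read from it. The part of this list in the p53 target values was not tested. Of 22 genes of the unfolded protein and ATF4 responses, 12 were highest on the round 1 ovary array (25.9% of genes tested) and 8 on the round 2 ovary array (24.3%), with a median round difference of -0.032 in ovary. In each list limma called 0 genes in the fits of sites, rounds and their contrast. At an unadjusted p under 0.05 the immediate early list had 1 of 23 genes between sites (2.6% of genes tested) and 3 between rounds (15.0%), and the ATF4 list had 5 of 22 and 3. The round counts are near the share over all genes, and the 5 of 22 between sites is above it. For the contrast both lists had 0 (1.33%).

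**Figure D4:**
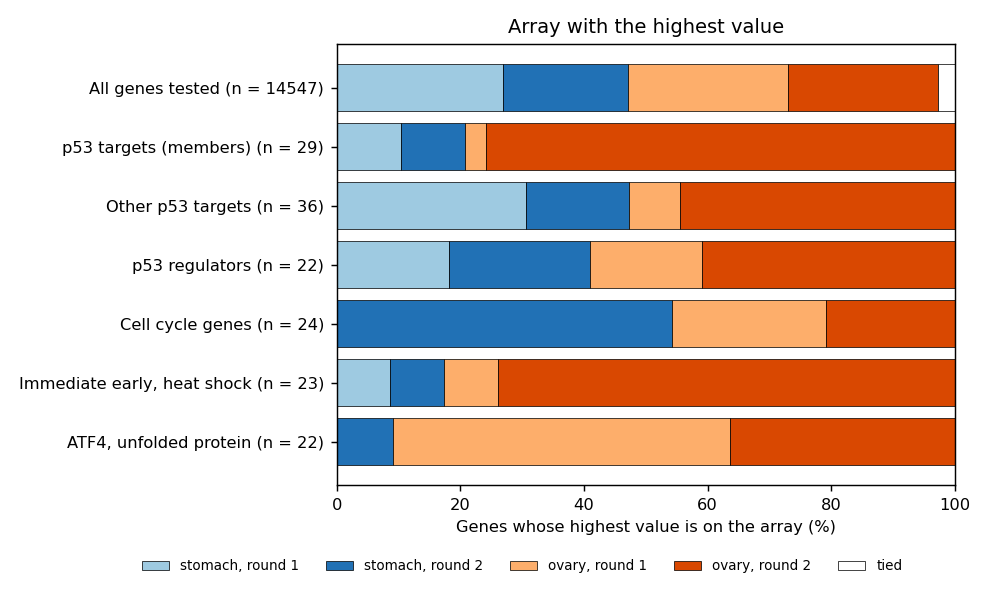
Share of genes (x axis, percent) whose highest of 4 values lies on each array, for all genes tested, the measured p53 target genes and 5 gene lists (y axis); white marks genes tied for the highest value. The round 2 ovary array holds 75.9% of the p53 target genes and 73.9% of the immediate early and heat shock genes, against 24.3% of all genes tested.

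Markers of the labelled cells were present on every array. All 9 epithelial markers exceeded the minimum, with values from 7.73 to 12.69, and their summed level (the log2 of the sum of linear values) lay between 14.48 and 14.80 over the arrays. Of markers of other cells, 5 of 11 leukocyte, 4 of 10 fibroblast, 4 of 9 endothelial and 4 of 9 ovarian stroma and follicle genes had means under the minimum, and the 4 measured mesothelial genes were above it, at 6.21 to 7.89. Those under the minimum included PTPRC, CD3E and MS4A1 of leukocytes, DCN and PDGFRA of fibroblasts, and PECAM1 and KDR of endothelium. The other 6 leukocyte, 6 fibroblast, 5 endothelial and 5 ovarian genes exceeded it. Those with the highest means were CD68 of leukocytes (9.47 to 9.89), COL1A1 of fibroblasts (7.54 to 7.62), ENG of endothelium (7.26 to 7.45), MSLN of mesothelium (7.23 to 7.89) and ZP3 of the ovary (8.38 to 9.04). Cells of the host would be mouse cells, whereas these probe sets are named for human genes. How they read mouse RNA was not tested, so these levels are no measure of host cells. The part of such cells in the p53 target values was not tested. Summed leukocyte levels were 10.64 to 10.69 in stomach and 10.41 to 10.52 in ovary, and summed fibroblast levels 9.37 to 9.48 and 9.35 to 9.42. Summed endothelial levels were 9.44 to 9.51 in stomach and 9.36 to 9.46 in ovary, summed mesothelial levels 8.68 to 8.90 and 8.84 to 8.98, and summed ovarian levels 9.86 to 10.20 and 9.90 to 10.19. The round 2 ovary array was the highest for 1, 1, 0, 0 and 1 genes of the leukocyte, fibroblast, endothelial, mesothelial and ovarian lists (24.3% of genes tested). It was the lowest for 7, 5, 1, 2 and 2 genes of these lists (23.6%), which hold 11, 10, 9, 4 and 9 measured genes.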

How the data were processed

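Total RNA was measured on 4 Affymetrix arrays. The deposited table holds log2 values of 33297 probe sets, made with Affymetrix Expression Console per the submitters' processing notes; version, background correction and normalization: not given in the sources used here. Values that span 2.25 to 14.2 with array medians of 6.80 to 6.84 were taken as log2. Precision is limited by the number of arrays.

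Probe sets with 1 symbol in GEO's platform annotation (19460; 1754 had several and 12083 none) were named, 19429 through gene identifiers in a RefSeq table of GRCh38.p14. The probe set with the highest mean stood for a gene. limma 3.58.1 (R 4.3.3) gave two-sided moderated tests of each difference, adjusted by Benjamini-Hochberg over 14547 genes at a threshold of 0.05, with 2 residual degrees of freedom; the script was tested on simulated data. A p-value measures only the spread between these arrays, part of which may be technical. Without a block, this spread holds the round difference in the fit of sites and the site difference in the fit of rounds. Replicate numbers are rounds; deviations of same-round arrays from their site means correlated at 0.411 across genes (2 pairs), so blocked fits are given. Lists have counts and medians with no test of the list. Members and lists were chosen with earlier results of these data known. All 31 members were to be named, with fits for the 12 of widest range and for CDKN1A, MDM2, BAX and BBC3; of each list at most 4 genes with the largest contrast, and MDM4 and TP73. Fits with an unadjusted p under 0.05 were added after values were seen, as were the names of the 4 further targets so marked between sites. Promoters are RefSeq's. Alternatives covered the signal minimum, scaling, probe set choice, prior, block, thresholds and the omission of each array. The plots used matplotlib 3.10.9.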

Additional observations from a re-analysis of the deposited data

Results flagged for a closer look

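PLK2 differed between sites in opposite directions in the 2 rounds, each time by at least 1.5-fold. Ovary minus stomach was -0.93 in round 1 and 1.60 in round 2. The round 1 ovary value lies under the signal minimum, so the size of the first is not to be relied on. This was read from single arrays and the difference between the rounds was not tested apart from the fit of the contrast (2.53 ± 1.41, adjusted p = 1 by limma). The groups of 2 arrays are too small to be screened for outlying samples.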

How the results depend on the processing

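Under the alternatives run (no signal minimum or one at the 50th percentile, centring on medians, quantile normalization, averaged probe sets, trended or robust prior, replicate block, adjusted p threshold of 0.10, leaving out each array), limma called 0 genes between sites, between rounds and for the contrast of site and round; the contrast was not refitted with an array left out, which leaves a combination empty. The pairing by round or site (replicate block) therefore changed no call. Leaving out 1 array at a time, the members' median site difference ranged from -0.059 to 0.30 and their median round difference from 0.059 to 0.42, the lowest of each being without the round 2 ovary array. Over the fits that leave out 1 array, the site difference ranged from -1.03 to 1.69 for PLK2, -0.66 to 1.2495 for TP53INP1, -0.041 to 1.13 for CDKN1A, -0.22 to 0.93 for MDM2, -0.38 to 0.60 for SESN1, -0.099 to 0.66 for TNFRSF10B and -0.27 to 0.024 for BBC3, and the round difference from -0.24 to 0.93 for AEN, -0.080 to 0.91 for GDF15, -0.29 to 0.61 for PLK3 and -0.092 to 0.018 for BAX. Leaving out the round 2 ovary array turned the direction for each of these except BBC3 (turned without the round 1 stomach array, as SESN1 also was) and BAX (without the round 1 ovary array). At a threshold of 0.32 on the log2 scale in round 1, 1 of 28 members was higher (5.06% of genes tested) and 2 lower (4.73%) in ovary; in stomach between rounds 5 were higher (6.46%) and 1 lower (6.98%). At a 2-fold threshold the counts were 3 higher in ovary in round 2 (0.172%), 0 lower in ovary in round 1 (0.275%), 0 higher in round 2 in stomach (0.158%) and 4 in ovary (0.701%). The search allowing 3 mismatches found elements in 6 members. The counts moved with another threshold, and directions turned when an array was left out, mostly the round 2 ovary array. Intensity near the signal minimum limits PLK2, TIGAR and SPATA18, and TP53INP1 in round 1 ovary.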
